A study of Mus musculus with 6 samples.

Results

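Histamine is handled in basophils by a small set of genes, and 7 of them were followed here in bone marrow-derived basophils (BMBAs): Hdc for synthesis, Slc18a2 for storage in granules, Slc22a3 for passage across the plasma membrane, Hnmt for breakdown, and Hrh1, Hrh2 and Hrh4 for reception. They were chosen by name and matched to the 37043 gene symbols of the count table. All 7 were listed. Hrh1 was too low for a test, so 6 members were among the 16675 genes tested.

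The libraries were bulk RNA-seq of PBS- and IL-3-treated BMBAs, with 3 cultures in each group, made to ask whether IL-3 could bear on the exit of immature basophils from the bone marrow. All samples came from wild-type C57BL/6J mice, whose age is not given in the labels. Bone marrow cells were grown for 7 days at 0.3 ng/mL of a cytokine that the labels do not name and that is IL-3 in the study's methods. Cells bearing CD49b were then enriched with a biotinylated antibody and streptavidin beads. One group received IL-3 at 10 ng/mL and the other PBS, both for 6 h. Both groups had therefore been raised in IL-3, and the sources used here do not say whether PBS-treated cells still had some of it around them during these hours. Nor do they say whether the 3 cultures of a group came from separate mice, so the p-values measure the spread between cultures.

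Histamine is made from histidine by histidine decarboxylase, the pyridoxal phosphate-dependent enzyme that Hdc encodes. Basophils and mast cells load it into secretory granules, where it is held on the charged sugar chains of the proteoglycan serglycin until the cell degranulates. Histamine outside the granules can be methylated in the cytosol by the enzyme that Hnmt encodes, and histamine outside the cell acts on G protein-coupled receptors.

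The gene for histamine synthesis was 2.74-fold higher in IL-3-treated than in PBS-treated BMBAs, whereas no change was detected in the genes for vesicular storage (Slc18a2) and membrane passage (Slc22a3). Hnmt, for breakdown by methylation, was 2.43-fold lower. Among the receptors, Hrh2 rose 1.83-fold from a low level, Hrh4 did not pass the test, and Hrh1 was close to absent in both groups. A gene was called when its Benjamini-Hochberg adjusted p in edgeR's quasi-likelihood test across all tested genes was below 0.05. Of the 6 tested members, 2 were higher and 1 was lower by this rule. Of all tested genes, 38.2% were called, 18.0% as higher (3003 genes) and 20.2% as lower (3372 genes). With library totals in place of TMM scaling, which assumes that most genes do not change, 1698 genes were called higher and 5030 lower. The CPM values (counts scaled to a common library total, after TMM scaling) of the groups did not overlap for 4 of the 6 tested members, against 48.2% of all tested genes. With 6 members tested, these counts do not set the members apart from tested genes in general.

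**Figure D1:**
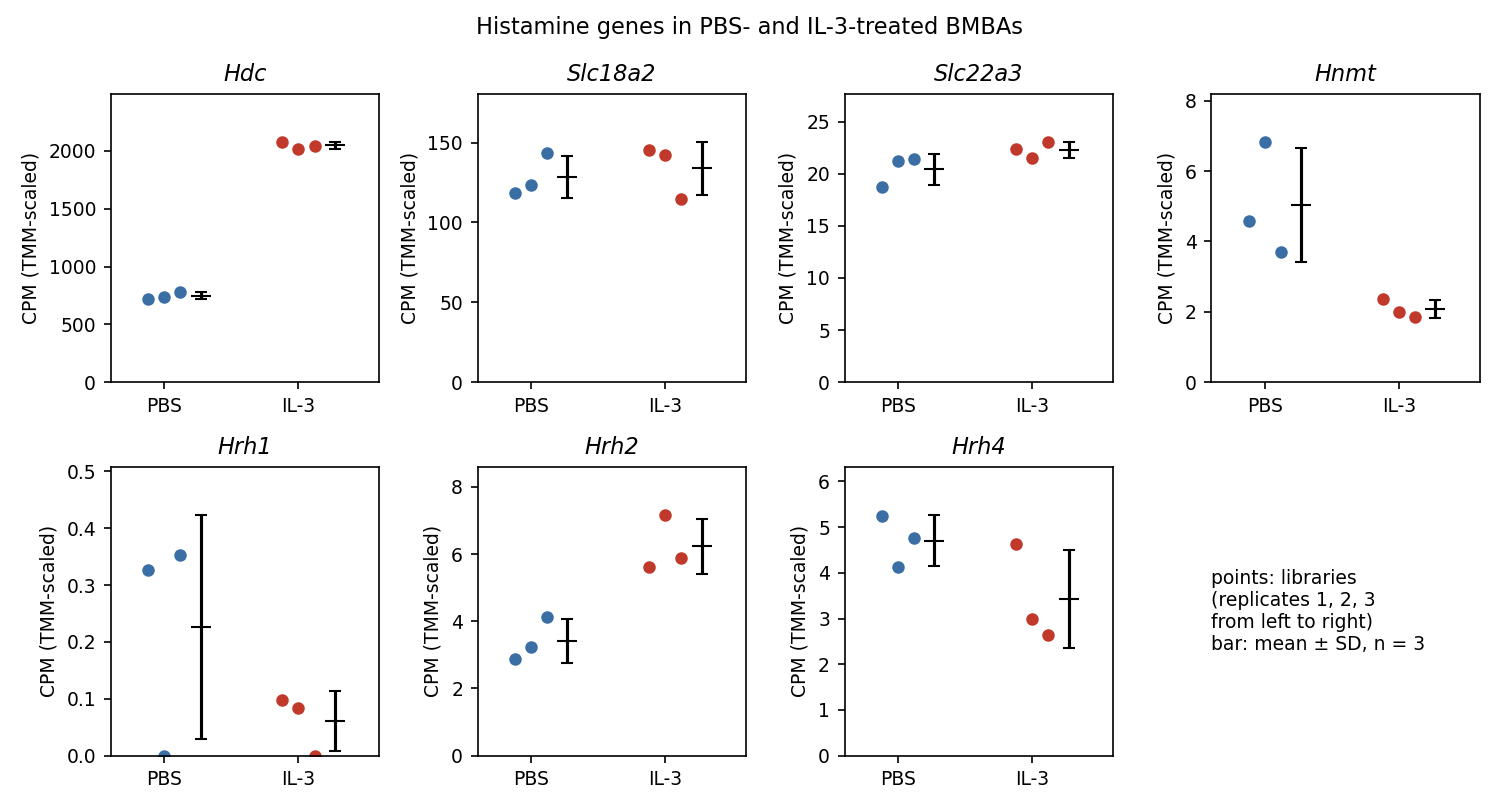
CPM of the 7 histamine genes in each library, with 1 panel per gene, a linear axis from 0, and PBS (blue) and IL-3 (red) on the horizontal axis. Points are the 3 libraries of a group and the black bar beside them is the mean ± SD. Hdc and Hrh2 lie higher and Hnmt lower in all IL-3 libraries, while the points of Slc18a2 and Hrh4 overlap.

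The DNA just upstream of the start sites is shown for the 3 called members and for Slc18a2, so that the gene whose transcript rose most can be read beside its storage partner, which was not called. Each line holds the 250 bases before a RefSeq start site in build GRCm38.p6, read 5′ to 3′ on the strand of the gene. These sequences are from RefSeq and not from the deposited files. Capitals mark matches on either strand to 4 short motifs. A GATA match is the word AGATAA with A or T as its first base and A or G as its last. The E-box word is CANNTG, the GC box word is GGGCGG and the STAT word is TTCNNNGAA. Reverse complements count as matches, and no match overlapped another in the windows shown. The windows are chr2:126618679-126618928 on the minus strand (Hdc), chr19:59260628-59260877 on the plus strand (Slc18a2), chr2:24049380-24049629 on the minus strand (Hnmt) and chr13:54191879-54192128 on the plus strand (Hrh2, the more upstream of 2 start sites).
Hdc: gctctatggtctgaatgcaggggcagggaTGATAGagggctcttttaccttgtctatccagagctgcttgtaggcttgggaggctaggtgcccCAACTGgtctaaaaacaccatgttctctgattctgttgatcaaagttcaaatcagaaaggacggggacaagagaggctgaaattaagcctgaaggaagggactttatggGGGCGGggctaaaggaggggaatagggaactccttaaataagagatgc
Slc18a2: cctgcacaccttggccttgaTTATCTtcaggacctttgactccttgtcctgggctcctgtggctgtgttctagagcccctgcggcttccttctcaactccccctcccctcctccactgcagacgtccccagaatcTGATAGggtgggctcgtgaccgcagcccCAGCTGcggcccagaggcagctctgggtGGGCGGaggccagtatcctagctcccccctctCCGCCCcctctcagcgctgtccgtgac
Hnmt: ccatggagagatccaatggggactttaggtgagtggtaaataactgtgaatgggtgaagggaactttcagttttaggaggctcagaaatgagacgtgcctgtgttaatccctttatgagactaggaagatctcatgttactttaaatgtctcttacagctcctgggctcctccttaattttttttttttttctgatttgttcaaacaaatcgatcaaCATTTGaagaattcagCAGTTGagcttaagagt
Hrh2: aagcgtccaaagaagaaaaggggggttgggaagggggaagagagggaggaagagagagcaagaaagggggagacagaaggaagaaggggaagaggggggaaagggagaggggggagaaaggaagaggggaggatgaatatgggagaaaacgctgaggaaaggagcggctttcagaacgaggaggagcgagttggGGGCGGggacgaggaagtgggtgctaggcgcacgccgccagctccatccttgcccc

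Of the 32851 RefSeq windows of this length, 26.5% held a GATA match, 66.2% an E-box, 7.0% a STAT match and 32.7% a GC box. The Hdc window held a GATA match starting at -221, an E-box at -157 and a GC box at -48, counted from the RefSeq start site. In GENCODE the Hdc gene begins upstream of this window, at 126619299 on the minus strand, and Hnmt begins within its window, at 24049394. The positions in these windows therefore hold for the RefSeq start sites only. The Slc18a2 window held GATA matches at -230 and -115, an E-box at -87 and GC boxes at -59 and -27. The Hnmt window held E-boxes at -33 and -17 and no other match, and the Hrh2 window a GC box at -56 and no other match. None of these 4 windows held the STAT letters. The matches describe the letters alone, since binding was not measured in these libraries.

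Library totals ranged from 10537540 to 13999287 counts, so that 3 counts correspond to 0.233 to 0.296 CPM. This was taken as an approximate upper limit for the expected count behind a count of 0, and higher values are unlikely but possible. That limit covers counting error only. Basophil markers were abundant in every library, with summed CPM of 9365 to 10477 in PBS and 13587 to 13893 in IL-3, and 4 of 6 were called higher and 1 lower. Markers of other cells were present and moved between the groups. Of 7 mast cell markers, 4 of the 6 tested were higher and none lower, with sums of 840 to 945 CPM in PBS and 1437 to 1571 in IL-3. Within that list Tpsb2, Cma1 and Kit were at 178, 95.3 and 73.9 CPM in PBS and 368, 236 and 110 CPM in IL-3. Mrgprb2, a marker of connective tissue-type mast cells, had 1 count in 1 PBS library and 0 in the others. Mcpt4 had 52, 25 and 26 counts in PBS and 19, 7 and 43 in IL-3. Of 8 monocyte and macrophage markers, 7 were lower and 1 higher, with sums of 11819 to 12765 CPM in PBS and 6154 to 6776 in IL-3. Eosinophil marker sums were 155 to 173 CPM in PBS and 95.02 to 136 in IL-3 (1 of 5 tested higher, 3 lower), and neutrophil sums 35.6 to 67.8 and 106 to 172 (2 of 5 higher, none lower). NK cell sums were 5.73 to 9.12 and 28.7 to 32.5 CPM. Most of these sums came from Nkg7, the 1 tested marker, which was called higher (means of 6.29 CPM in PBS and 29.3 in IL-3). Ncr1, Klrb1c and Klrd1 were too low for a test, and Gzma was at 0 in every library. Dendritic cell sums were 9.73 to 12.1 and 6.75 to 7.99 CPM (1 of 4 lower, with Cd209a at 0 in every library). In bulk RNA, more cells of a type and more of a transcript per cell cannot be told apart, and this applies to every member described here.

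Hdc, the only enzyme known to make histamine in mammals (ENSMUSG00000027360, chromosome 2, 126593667 to 126619299, minus strand, GENCODE annotation of GRCm38), rose in IL-3. Its level was 721, 741 and 779 CPM in the PBS libraries and 2081, 2016 and 2046 CPM in the IL-3 libraries. The groups lay far apart, and each IL-3 library was above every PBS library by more than the whole spread within a group. The mean of 747 ± 29.6 CPM in PBS became 2048 ± 32.3 CPM in IL-3 (SD, n = 3), for a log2 fold change of 1.45 (SE 0.0442, 95% interval 1.36 to 1.55, adjusted p = 3.87e-13 in edgeR's quasi-likelihood test). By mean CPM over the 6 libraries, which is not divided by transcript length, Hdc was number 49 of the 16675 tested genes. By log2 fold change it was number 350 from the top. The median absolute log2 fold change of all called genes was 0.61. Under 16 other scalings, filters, tests, depths or sets of libraries the log2 fold change was 1.29 to 1.49, and Hdc was called each time.

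The rise of Hdc was set against the cell type markers that rose with it. Mcpt8, the basophil protease, went from 3066 ± 171 to 5895 ± 178 CPM (log2 fold change 0.94, adjusted p = 6.98e-11 in edgeR's quasi-likelihood test). The other basophil markers moved by other amounts. Cd200r3, an activating receptor, rose by 1.31 on the log2 scale, Ms4a2, the IgE receptor beta chain, by 0.82 and Itga2, which encodes CD49b, by 0.53, while Fcer1a, the IgE receptor alpha chain, fell by 0.50. Prss34, another basophil protease, was not called (0.012, adjusted p = 0.860 in the same test), and with library totals its value was -0.15. Among mast cell markers, Cma1, a chymase, rose by 1.31 on the log2 scale and Tpsb2, a tryptase, by 1.04. Kit, the stem cell factor receptor, rose by 0.58, and Cpa3, a carboxypeptidase that basophils share, by 0.53. Mcpt4 and Tpsab1 of the same list were not called (-0.58 and -0.019). Lyz2, the macrophage lysozyme and 1 of 7 monocyte and macrophage markers called lower, fell by 0.97. Adgre1, the 1 marker of that list called higher, rose by 0.53. The part of these shifts in the change of Hdc was not tested. Within each library, the log2 ratio of Hdc to Mcpt8 was -2.01, -2.04 and -2.06 in PBS and -1.49, -1.51 and -1.57 in IL-3. All IL-3 ratios were higher, and the means differed by 0.51 (1.43-fold). This difference holds for Mcpt8 as the reference, and ratios to the other basophil markers, which moved by other amounts, were not computed.

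Histidine decarboxylase needs histidine and pyridoxal phosphate, and of 10 genes that supply them, 8 were tested, 4 were called higher and 3 lower, beside 18.0% and 20.2% of all tested genes (median log2 fold change 0.19, against -0.0033 for all tested genes). Slc7a5, the large neutral amino acid carrier LAT1, stood at 87.0, 92.1 and 105 CPM with PBS and 692, 722 and 653 CPM with IL-3. This 7.28-fold difference left no overlap (log2 fold change 2.86, SE 0.0695, adjusted p = 2.69e-14 in edgeR's quasi-likelihood test). Slc3a2, its heavy chain partner, went from 416 ± 12.4 to 674 ± 14.6 CPM (0.70 on the log2 scale) and Slc7a8, the related carrier LAT2, from 245 ± 17.7 to 502 ± 4.29 CPM (1.03). Slc15a3, which moves histidine and peptides across endolysosomal membranes, ran the other way, from 401 ± 1.79 to 208 ± 7.86 CPM (-0.95, adjusted p = 4.38e-10 in the same test).

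Enzymes of the cofactor moved in both directions. Pdxk, the kinase that phosphorylates vitamin B6, was at 99.1, 94.8 and 88.2 CPM under PBS and 64.5, 57.4 and 66.9 CPM under IL-3. Every IL-3 library lay below every PBS library (log2 fold change -0.58, adjusted p = 1.01e-05 in edgeR's quasi-likelihood test). Pdxp, the phosphatase that removes the cofactor's phosphate, was called higher from 1.90 to 3.27 CPM (0.78, adjusted p = 0.0335 in the same test), a call lost under 5 of 16 alternatives.

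**Figure D2:**
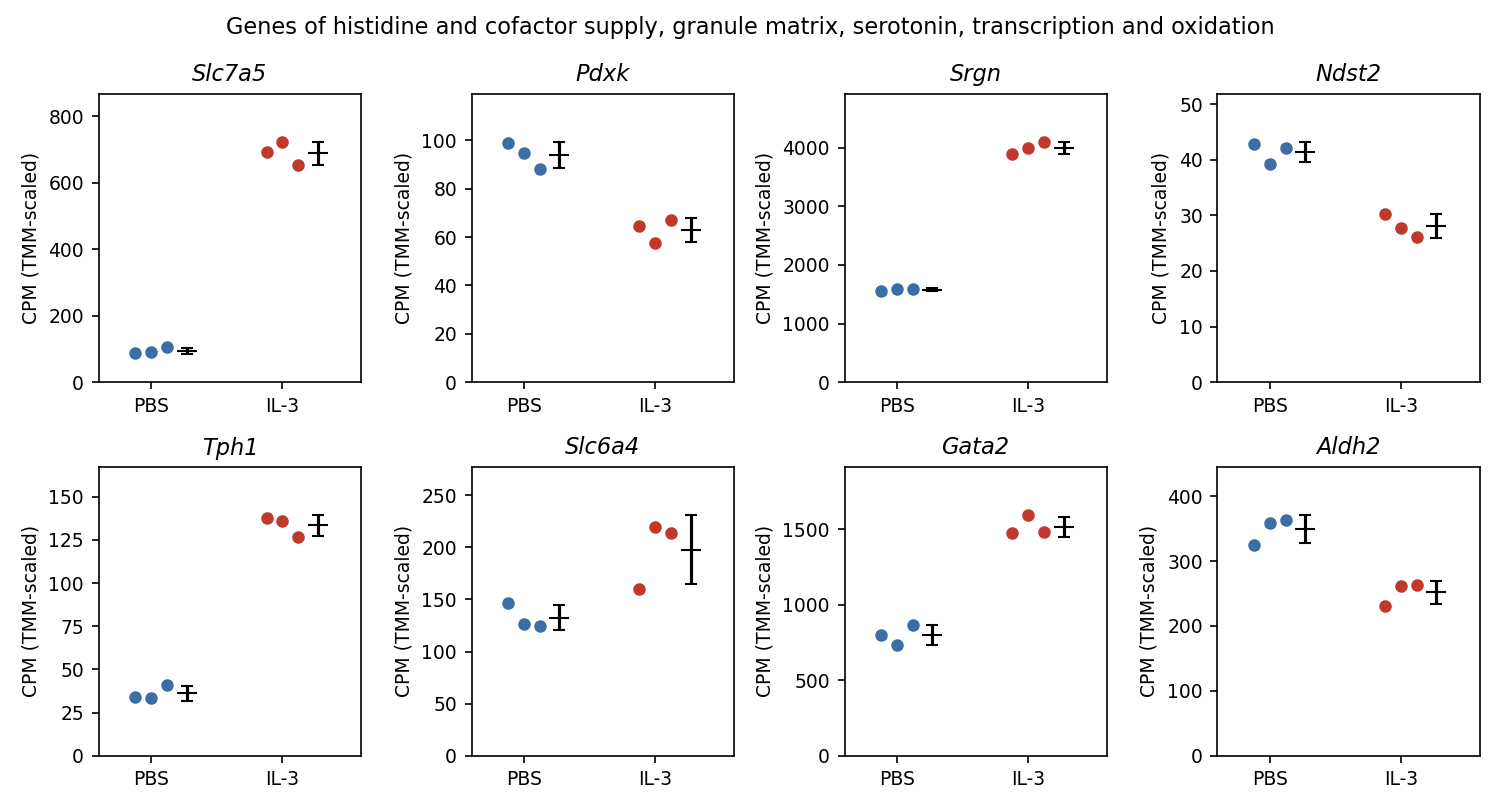
CPM in each library of 8 genes from the lists on supply, storage, serotonin, transcription and oxidation, with PBS in blue and IL-3 in red on linear axes from 0. Points are the 3 libraries of a group, and the black bar beside them is the mean ± SD. Slc7a5, Srgn, Tph1, Slc6a4 and Gata2 are higher and Pdxk, Ndst2 and Aldh2 lower in all IL-3 libraries.

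Slc18a2, the vesicular monoamine transporter VMAT2 that loads histamine and serotonin into granules (ENSMUSG00000025094, chromosome 19, 59260896 to 59296012, plus strand), did not follow Hdc. It measured 119, 124 and 144 CPM in PBS libraries and 145, 142 and 115 CPM in IL-3 libraries. The groups overlapped throughout, with both the lowest and the highest value among the IL-3 libraries. Its log2 fold change was 0.058 (SE 0.0880, adjusted p = 0.650 in edgeR's quasi-likelihood test), and its 95% interval of -0.13 to 0.25 holds neither a change as large as that of Hdc nor one as large as that of Mcpt8. With library totals in place of TMM scaling, which moved the median of all genes by -0.163 on the log2 scale, the sign turned, to -0.10. Slc18a1, the vesicular transporter VMAT1, fell from a much lower level, from 3.24 ± 0.850 to 1.14 ± 0.379 CPM (-1.53, adjusted p = 0.00133).

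Serotonin uses the same granule transporter. Tph1, the first enzyme of serotonin synthesis outside the brain, was at 34.2, 33.1 and 41.0 CPM with PBS and 138, 136 and 127 CPM with IL-3. The groups were well separated, and the log2 fold change was 1.88 (SE 0.0794, 3.69-fold, adjusted p = 2.21e-11 in edgeR's quasi-likelihood test). Slc6a4, the plasma membrane serotonin carrier, rose by 0.58 on the log2 scale from 132 ± 12.1 to 198 ± 33.1 CPM (adjusted p = 0.000214), with IL-3 replicate 1 nearer to PBS than the other two. Maoa, which oxidises serotonin, fell by 0.82 from 7.58 ± 1.25 CPM (adjusted p = 0.00228). Of the 6 serotonin and amine enzymes these were the only ones tested, since the other 4 were below the filter on low counts. Of 10 other monoamine and organic cation carriers, 9 were in the table, 5 were tested, 1 was called higher (Slc6a4) and 2 lower (Slc18a1 and Slc22a4), where 38.2% of all tested genes were called.

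Ratios within a library depend on how libraries were scaled only through the prior count, which weighs most on the low counts of Hnmt. The log2 ratio of Hdc to Slc18a2 was 2.60, 2.58 and 2.44 in PBS and 3.84, 3.83 and 4.15 in IL-3. All IL-3 ratios lay above all PBS ratios, and the means (2.54 ± 0.0900 and 3.94 ± 0.185) differed by 1.40, or 2.64-fold. The ratio of Slc18a2 to Mcpt8 ran the other way, with means of -4.58 ± 0.0704 in PBS and -5.46 ± 0.227 in IL-3, a difference of -0.89. The log2 ratio of Hdc to Hnmt was 7.25, 6.72 and 7.65 in PBS and 9.68, 9.86 and 9.98 in IL-3. It differed by 2.63, or 6.19-fold, the largest of the 4 ratios computed. For each of the 4 ratios, the exact two-sided permutation test gave p = 0.1, also after adjustment over the 4, which is the smallest p that 3 against 3 samples allow.

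**Figure D3:**
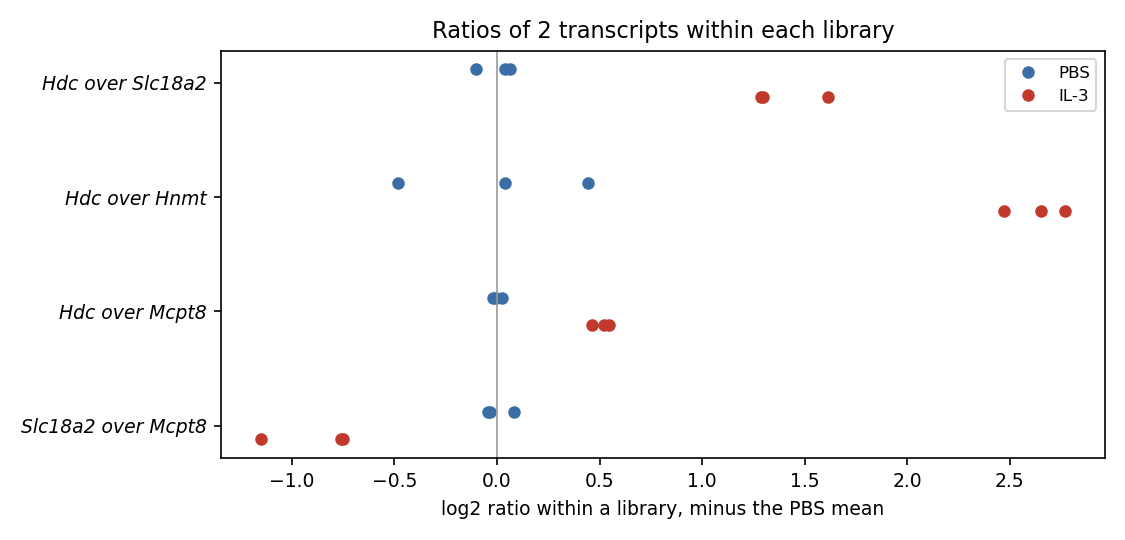
Log2 ratio of 2 transcripts within each library, shown as the difference from the PBS mean of that ratio, for Hdc over Slc18a2, Hdc over Hnmt, Hdc over Mcpt8 and Slc18a2 over Mcpt8. Each point is 1 library (PBS blue, IL-3 red), and the grey line marks the PBS mean. The IL-3 points lie to the right for the 3 ratios with Hdc and to the left for Slc18a2 over Mcpt8, with no overlap.

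In the granule, histamine sits on serglycin. Srgn, which encodes that core protein, was at 1550, 1586 and 1595 CPM under PBS and 3888, 3999 and 4105 CPM under IL-3. The groups were far apart, with a 2.54-fold difference (log2 1.34, SE 0.0390, adjusted p = 2.24e-13 in edgeR's quasi-likelihood test). The enzymes that build and sulphate its sugar chains moved in both directions. Of the 10 genes of this list, Srgn included and all tested, 2 were called higher, 3 lower and 5 were not called (median log2 fold change -0.16), close to the 18.0% and 20.2% of all tested genes. Chst11, a chondroitin sulphotransferase, was the other gene called higher (0.35, adjusted p = 0.00670), a call lost with library totals. Ndst2, the heparin sulphotransferase of mast cell granules, fell by 0.56 on the log2 scale from 41.4 ± 1.86 to 28.1 ± 2.10 CPM (adjusted p = 9.31e-05). Chst12 and Chst15, further chondroitin sulphotransferases, fell by 0.40 and 0.36.

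Slc22a3, the organic cation transporter OCT3, which carries histamine across the plasma membrane in either direction (ENSMUSG00000023828, chromosome 17, 12418960 to 12507704, minus strand), was at 18.7, 21.2 and 21.4 CPM in PBS libraries and 22.4, 21.5 and 23.0 CPM in IL-3 libraries. All IL-3 libraries were above all PBS libraries, but PBS replicate 3 and IL-3 replicate 2 nearly touched. The means were 20.5 ± 1.49 and 22.3 ± 0.780 CPM, with a log2 fold change of 0.13 (SE 0.105, 95% interval -0.097 to 0.35, adjusted p = 0.380 in edgeR's quasi-likelihood test). With library totals in place of TMM scaling the sign turned, to -0.037. Slc22a4, a related carrier best known for ergothioneine, fell by 1.43 on the log2 scale from 11.9 ± 2.31 to 4.42 ± 0.165 CPM (adjusted p = 8.20e-06).

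Slc22a3 lies in the imprinted cluster around Igf2r on chromosome 17. Igf2r, the receptor that sorts lysosomal enzymes, fell by 0.75 on the log2 scale, from 31.7 ± 2.50 to 18.8 ± 0.258 CPM (adjusted p = 1.61e-05 in edgeR's quasi-likelihood test). Airn, the antisense RNA of the cluster, had 3.11 ± 0.310 CPM in PBS and 2.27 ± 0.205 in IL-3 and was not called (-0.45, adjusted p = 0.163). The tested genes of the cluster besides Slc22a3 were these, so 1 of 2 was called lower and none higher, where 20.2% of all tested genes were lower. Igf2r and Airn overlap on opposite strands, and the sources used here do not state whether counting used strand, so their reads cannot be told apart with certainty.

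Hnmt, histamine N-methyltransferase, the cytosolic enzyme that inactivates histamine (ENSMUSG00000026986, chromosome 2, 24002910 to 24049394, minus strand), was low in both groups. It had 56, 78 and 42 counts in PBS and 24 in each IL-3 library, or 4.58, 6.84 and 3.70 CPM with PBS and 2.37, 1.999 and 1.86 CPM with IL-3. All IL-3 libraries lay below all PBS libraries, and the PBS values spread more widely, with replicate 2 the highest. Means were 5.04 ± 1.62 and 2.08 ± 0.263 CPM, and the log2 fold change was -1.28 (SE 0.267, 95% interval -1.85 to -0.72, adjusted p = 0.00121 in edgeR's quasi-likelihood test). Leaving out any 1 library gave -1.46 to -1.005, and Hnmt was called each time. Of 8 monocyte and macrophage markers, 7 were called lower and Adgre1 higher in the same libraries (median log2 fold change -0.996). Their part in the fall of Hnmt was not tested.

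Other genes of histamine and histidine breakdown moved in both directions. Of 7 listed, 5 were tested, 2 were called higher, 1 lower and 2 were not called (median log2 fold change -0.11), where 18.0% of all tested genes were higher and 20.2% lower. Aldh2, an aldehyde dehydrogenase that can oxidise the aldehydes left by amine oxidation, was by far the most abundant of them, at 324, 359 and 364 CPM under PBS and 231, 261 and 263 CPM under IL-3. All IL-3 values were lower (-0.47, SE 0.0628, adjusted p = 1.93e-05 in edgeR's quasi-likelihood test). Maob, which oxidises methylhistamine, rose by 1.17 on the log2 scale, from 2.07 ± 0.575 to 4.62 ± 0.766 CPM (adjusted p = 0.00179). Hal, histidine ammonia-lyase, which degrades histidine, rose by 1.29 from 1.30 ± 0.641 to 3.16 ± 0.410 CPM (adjusted p = 0.00500). Aoc1, the diamine oxidase that degrades histamine outside cells, had 2 and 1 counts in a pair of IL-3 libraries and 0 in the other 4 libraries.

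Hrh2, the H2 receptor, which couples to stimulatory G proteins (ENSMUSG00000034987, chromosome 13, 54192129 to 54236180, plus strand), was the only receptor called. It had 35, 37 and 47 counts in PBS and 57, 86 and 76 in IL-3, or 2.86, 3.24 and 4.14 CPM against 5.63, 7.16 and 5.89 CPM. The groups did not overlap, although the gap between them was about as wide as the spread within a group. Means were 3.42 ± 0.656 and 6.23 ± 0.820 CPM, and the log2 fold change was 0.87 (SE 0.209, 95% interval 0.43 to 1.31, adjusted p = 0.00361 in edgeR's quasi-likelihood test). It was called under all 16 alternatives, with log2 fold changes of 0.71 to 1.03 and adjusted p of 0.0251 at most.

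Hrh4, the H4 receptor of blood cells, which couples to inhibitory G proteins (ENSMUSG00000037346, chromosome 18, 13006990 to 13022882, plus strand), had 64, 47 and 54 counts in PBS and 47, 36 and 34 in IL-3. In CPM these were 5.24, 4.12 and 4.76 against 4.64, 2.998 and 2.64, with IL-3 replicate 1 within the PBS range. The log2 fold change was -0.48 (SE 0.239, 95% interval -0.99 to 0.032, adjusted p = 0.134 in edgeR's quasi-likelihood test). Without IL-3 replicate 1 it became -0.74 and was called (adjusted p = 0.0324). With library totals it became -0.64 and was called as well (adjusted p = 0.0468).

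Hrh1, the H1 receptor, which couples to the Gq family (ENSMUSG00000053004, chromosome 6, 114397936 to 114483296, plus strand), had 4, 0 and 4 counts in PBS and 1, 1 and 0 in IL-3. Both groups were at or near the limit of 3 counts, so a difference was not detectable at this depth and no fold change is given. The gene for the H3 receptor was not analysed here.

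Of 12 genes through which these receptors couple, 11 were tested, 3 were called higher, 4 lower and 4 were not called (median log2 fold change -0.22), beside 18.0% of all tested genes higher and 20.2% lower. The inhibitory subunits Gnai2 and Gnai3 rose by 0.22 and 0.28 on the log2 scale, with Gnai2 at 854 ± 8.85 and 997 ± 11.2 CPM. Gna11, of the Gq family, rose by 0.45 (adjusted p = 0.0202 in edgeR's quasi-likelihood test). The calls of Gnai2 and Gnai3 were lost with library totals, and that of Gna11 under 4 of 16 alternatives. Gnaq, which transmits H1 signals to phospholipase C, fell by 0.57 from 56.6 ± 3.81 to 38.1 ± 1.75 CPM (adjusted p = 2.99e-05). Plcb2, a phospholipase of that route, fell by 0.39 (adjusted p = 0.000765), and the adenylyl cyclases Adcy9 and Adcy7 fell by 1.21 and 0.28.

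Levels can be compared between genes only per length, here as CPM per kilobase of the longest annotated transcript. In PBS, Hdc stood at 165 ± 6.54 CPM per kb, Slc18a2 at 29.3 ± 3.03, Slc22a3 at 4.96 ± 0.361, Hrh4 at 3.06 ± 0.364, Hnmt at 3.04 ± 0.978, Hrh2 at 0.810 ± 0.155 and Hrh1 at 0.0599 ± 0.0520. Hrh4 and Hnmt did not differ beyond their spread in this order. In IL-3, Hdc stood at 453 ± 7.14, Slc18a2 at 30.5 ± 3.79, Slc22a3 at 5.41 ± 0.189, Hrh4 at 2.23 ± 0.695, Hrh2 at 1.48 ± 0.194, Hnmt at 1.25 ± 0.159 and Hrh1 at 0.0160 ± 0.0140 CPM per kb. The IL-3 libraries of Hrh2 and Hnmt overlapped on this scale, and the lowest Hrh4 library (1.72) was barely above the highest Hrh2 library (1.70). The level of Hdc depends on the transcript taken as its length, from 117 CPM per kb in PBS over the union of its exons to 1253 over its median transcript. Over its transcript with the longest coding sequence, a choice made after seeing the data, it was 312. It was the highest member in each case.

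**Figure D4:**
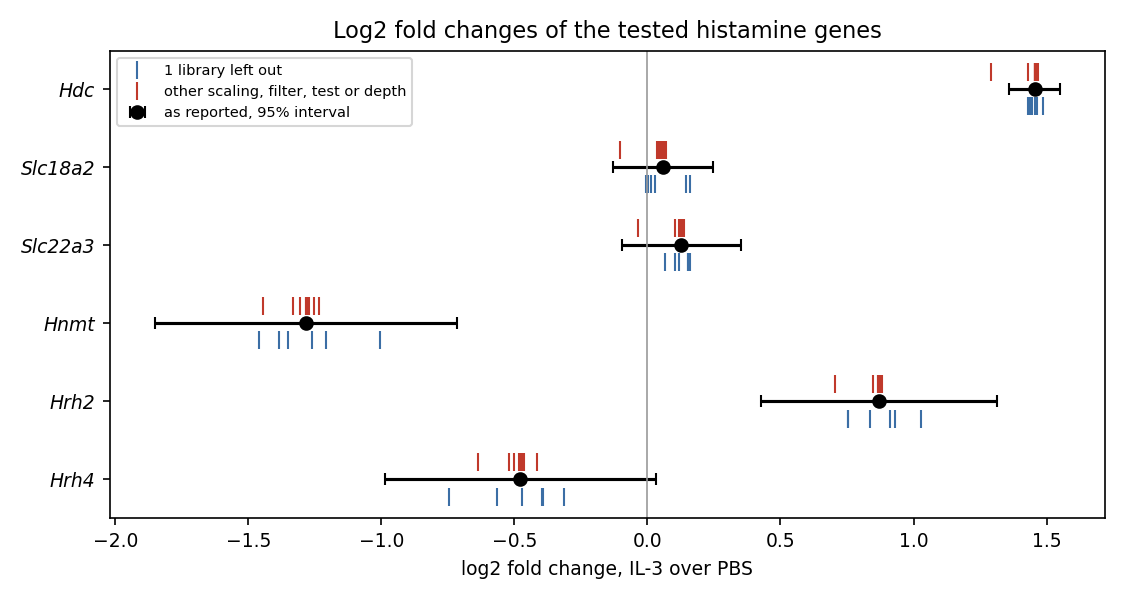
Log2 fold change (IL-3 over PBS) of the 6 tested members on the horizontal axis. The black point and bar are the value as reported and its 95% interval, red ticks the values under other scalings, filters, tests or depth, and blue ticks those with 1 library left out. Hdc, Hnmt and Hrh2 stay clear of 0 under all settings, Slc18a2 and Slc22a3 have ticks on both sides of 0, and the ticks of Hrh4 lie below 0 with an interval that reaches it.

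Transcription factors of basophils and mast cells, some of which are known to act on Hdc in such cells, numbered 9 in the list. All were tested, 6 were called higher, 2 lower and 1 was not called (median log2 fold change 0.92), where 18.0% of all tested genes were called higher and 20.2% lower. Gata2, which specifies basophils and mast cells, was at 799 ± 67.4 CPM in PBS libraries and 1518 ± 66.2 CPM in IL-3 libraries (0.93, SE 0.0576, adjusted p = 2.73e-09 in edgeR's quasi-likelihood test). Bhlhe40, a basic helix-loop-helix repressor, went from 97.8 ± 5.01 to 332 ± 11.7 CPM (1.76, adjusted p = 1.24e-12), while Tal1, a partner of GATA factors, rose by 1.12 and Runx1, needed for basophil development, by 0.92. Cebpa, which directs precursors to granulocytes, fell by 0.71 from 264 ± 8.65 to 162 ± 18.2 CPM (adjusted p = 9.07e-07). Stat5b, which relays IL-3 receptor signals, fell by 0.24 (adjusted p = 0.0178), a call lost without PBS replicate 2, PBS replicate 3 or IL-3 replicate 1. Over all 69 genes of the pathway lists, 52 were tested, 19 were called higher and 17 lower, beside 38.2% of all tested genes called in either direction. The lists were chosen with results known, so nothing is read from this difference.

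**Figure D5:**
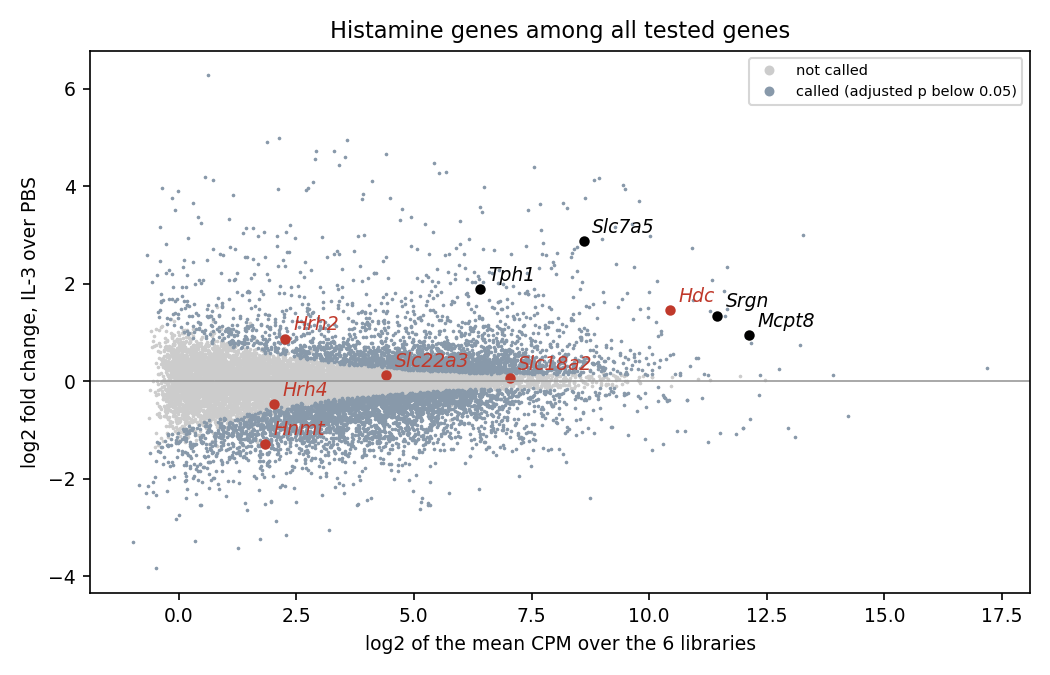
Log2 fold change (IL-3 over PBS, vertical) against the log2 of the mean CPM over the 6 libraries (horizontal) for the 16675 tested genes, each a small point, blue-grey where called. The 6 tested members are red, and Tph1, Slc7a5, Srgn and Mcpt8 are black. Hdc lies at a high level and well above 0, while Hrh2, Hrh4 and Hnmt lie at low levels where only larger changes were called.

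For each called member, the genes with the most similar pattern were taken as those of at least 20 CPM on average with the smallest root mean square difference in centred log2 CPM over the 6 libraries, 2 groups of 3. For Hdc these were Cyp11a1, the side chain cleavage enzyme of steroid synthesis (0.0278, from 1355 ± 86.0 to 3679 ± 21.9 CPM), Pfkp, a phosphofructokinase (0.0303), and Nabp1, a single-strand DNA-binding protein (0.0369). For Hnmt they were Ciart, a circadian repressor (0.0671, from 69.7 ± 24.9 to 28.7 ± 4.68 CPM), Nr1d1, the nuclear receptor REV-ERBα (0.121), and Bhlhe41, a basic helix-loop-helix repressor (0.178). For Hrh2 they were Rabggta, a subunit of the enzyme that prenylates Rab proteins (0.0688), Gm5388 (0.0887) and Jazf1, a zinc finger protein (0.103). The likeness rests on the group difference and on the few libraries, and candidates numbered 6692 for Hdc and 6693 for the other members.

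Of the nearest protein-coding genes on either side of the members, 9 were tested and 6 were called, against 38.2% of all tested genes. Gabpb1, a subunit of a transcription factor, lies 8143 bp from Hdc and rose by 0.56 on the log2 scale (adjusted p = 0.000776 in edgeR's quasi-likelihood test). Pdzd8, an endoplasmic reticulum tether, lies 1166 bp from Slc18a2 and rose by 0.38 (adjusted p = 0.000654), unlike Slc18a2 itself, which was not called. Cplx2, a complexin of the exocytosis machinery, lies 135169 bp from Hrh2 and rose by 1.10 from 9.51 ± 0.437 to 20.4 ± 0.461 CPM (adjusted p = 2.02e-06). Impact, a translation regulator 14040 bp from Hrh4, fell by 0.86 (adjusted p = 3.49e-07), and Zfp521, a zinc finger protein on the other side of Hrh4, fell by 1.33 (adjusted p = 0.0111), a call lost without PBS replicate 3 or IL-3 replicate 2. Atg7, an autophagy enzyme next to Hrh1, rose by 0.50 (adjusted p = 0.000132). Map3k4 beside Slc22a3 (-0.17, adjusted p = 0.403), Spopl beside Hnmt (0.18, adjusted p = 0.145) and Sfxn1 beside Hrh2 (0.14, adjusted p = 0.102) were not called. Gm29261, the antisense gene that overlaps Slc18a2, had at most 0.655 CPM in any library, and Gm16578, antisense to Hrh2, had no count. Of the 50-base stretches of their transcripts, 0.141% were shared with other genes for Hdc and 0% for the other members. Reverse complements were not compared, so these shares do not cover genes that overlap a member on the opposite strand.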

How the data were processed

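Bulk RNA-seq of PBS- and IL-3-treated BMBAs was analysed (3 samples each). The authors deposited raw counts per gene symbol for all 6 libraries in a single table. According to the study's methods, poly(A) RNA was reverse-transcribed on beads and amplified as whole-transcriptome cDNA, and reads were mapped to reference RNA and counted. The submitters' processing notes name cutadapt 3.4 and Bowtie2. No molecular identifiers are described, so PCR copies count as reads. The sources used here do not state how strand or reads of several origins were treated. The labels list build GRCm39 and the methods GRCm38, and the labels name a column kit where the methods name direct lysis. Coordinates come from the GENCODE M21 annotation and RefSeq tables of GRCm38, not from the files, and 96.1% of symbols matched that annotation.

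Groups were taken from the labels. Genes were filtered with filterByExpr, scaled by TMM and tested with edgeR 4.0.16 (quasi-likelihood test, group only, R 4.3.3), with Benjamini-Hochberg adjustment over the 16675 genes left. The SE follows from the F value. Within-library ratios were taken on the log2 CPM scale (prior count 2) and compared by an exact permutation test. Alternatives were 3 scalings, 2 filters, DESeq2 1.42.0, limma-voom 3.58.1, edgeR's exact test, a replicate block, leaving out each library, and thinning all to the smallest. The fitting code was tested on simulated data. No group of 3 was screened for outliers. Members and lists were chosen with earlier results of these data known. From each list, up to 4 genes per direction with the smallest adjusted p among those called were named, with all members, their neighbouring genes, the 3 genes nearest to each called member, and markers. Airn, Aoc1 and the markers besides Mcpt8 were named after their values were seen. A gene that this rule names is not reported here.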

Additional observations from a re-analysis of the deposited data

How the results depend on the processing

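Hdc, Hrh2 and Hnmt kept their direction and their call under all 16 alternatives. With library totals in place of TMM scaling, all genes shifted by a median of -0.163 (log2). The calls over all genes then split into 1698 higher and 5030 lower, against 3003 and 3372 with TMM, Slc18a2 went to -0.10 and Slc22a3 to -0.037, and Hrh4 was called (-0.64), which made 2 members lower in place of 1. Under that scaling Prss34 was at -0.15 and called (adjusted p = 0.0255 in edgeR's quasi-likelihood test), and Sfxn1 was at -0.021. Prss34 was at -0.011 under iterated TMM and at -0.027 to 0.056 with 1 library left out. With 1 library left out, the log2 fold change ranged from -0.0051 to 0.16 for Slc18a2 and from -0.74 to -0.31 for Hrh4, and 1 to 2 members were called lower, 2 of them only without IL-3 replicate 1. The level of Hdc in PBS, 165 CPM per kb, was 117 over the union of exons, 1253 over the median transcript and 312 over the transcript with the longest coding sequence, which was chosen after seeing the data. The cause of these shifts was not tested, other than that the length divides the level. Samples with the same replicate number did not deviate together (r = -0.00869, -0.0162 and -0.0224 across genes). With the replicate number as a block, Hdc was at 1.46, Slc18a2 at 0.056, Slc22a3 at 0.13, Hnmt at -1.25, Hrh2 at 0.87 and Hrh4 at -0.48, with 2842 genes called higher and 3247 lower, and the pairing changed no call of a member. The ratios kept their direction throughout. Hnmt, Hrh2 and Hrh4 rest on 24 to 86 counts per library, which limits them more than Hdc.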
